A study of Homo sapiens with 6 samples.

Results

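The transcripts described here encode the protein factors that take an mRNA through initiation, elongation and termination on the ribosome. A list of 43 such genes was searched by symbol in a table of 62443 genes, and all 43 were found, each under 1 identifier. Genes were taken by symbol and not by their measured values, although the list was chosen with earlier results of these data known. In translation, eIF2 brings the initiator tRNA to the small ribosomal subunit, eIF3 and the start codon factors EIF1, EIF1AX and EIF5 assemble with it, and the cap-binding eIF4 proteins load this complex on the mRNA and scan it to the start codon. The eEF1 and eEF2 proteins then carry the ribosome along the coding sequence, and ETF1 with GSPT1 releases the finished chain at the stop codon. Proliferating and tumour cells depend on these factors, and several of them are limiting for growth.

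To ask how these transcripts differed after exposure to a peptide, RNA-sequencing values of HGC-27 cells, an established line of human gastric cancer, were set side by side for 3 control libraries (Con) and 3 libraries of cells given GLUP. GLUP is a cyclic peptide made from the stretch of VGLL4 that contacts TEAD4, the DNA-binding partner at the end of the Hippo pathway. Con cells carry the treatment label none, and the study's methods name the buffer of the peptide as negative control. Every library came from the 1 line, and the study's methods speak of biological replicates without saying how the libraries of each group map to cultures, so that p-values measure the spread between these libraries.

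The values were FPKM, fragments scaled to transcript length and to the mapped total of the library, which summed to between 909735 and 965147 per library; the number of reads behind them is unknown. A pair of libraries needs naming before any result. Con replicate 2 was the library farthest from the mean of the other 5 for 28 of the 43 genes and for 55.3% of all tested genes. Con replicate 3 was the control nearest to the GLUP mean for 32 of the 43 and for 67.3% of all tested genes. The median SD of the 43 genes was 0.48 over the Con libraries and 0.21 over the GLUP libraries on the log2(FPKM + 1) scale. Results are therefore also given without each of these 2 controls. Among the markers of the cell type, VIM was abundant (336 to 387 FPKM in Con, 222 to 336 FPKM in GLUP), whereas the epithelial genes EPCAM and CDH1 stayed at or under 0.124 FPKM. The summed level of the 5 epithelial markers was 2.97 to 3.70 FPKM in Con and 5.18 to 6.06 FPKM in GLUP, that of the 4 mesenchymal markers 344 to 410 FPKM and 229 to 339.5 FPKM, and that of the 4 fibroblast markers 40.5 to 60.4 FPKM and 31.3 to 48.7 FPKM. Of the blood genes, PTPRC stayed at or under 0.0394 FPKM and CD3E and HBB were listed at 0. The part of these marker levels in the results below was not tested.

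The 43 transcripts spanned a wide range of levels, from 1.85 FPKM for EIF2B5 to 2057 FPKM for EIF4A1 as means of the 6 libraries. EIF4A1 encodes the RNA helicase that opens the leader of an mRNA ahead of the scanning subunit, and EIF5 the GTPase-activating protein of eIF2. These 2 genes alone held 47.8% to 56.8% of the summed FPKM of the list in each library. The elongation factors EEF1A1 (729 FPKM), EEF1G (455 FPKM) and EEF1B2 (265 FPKM), the small eIF3 subunit EIF3K (464 FPKM) and EIF6 (378 FPKM), which keeps free large subunits from joining too early, came next. At the other end stood the scaffold EIF4G1 with 2.99 FPKM, EIF3A with 4.09 FPKM, and both release factors with 4.61 FPKM each. The whole list made up 0.771% of the nuclear FPKM total in Con replicate 2 and 0.968% to 1.13% in the remaining libraries.

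**Figure D1:**
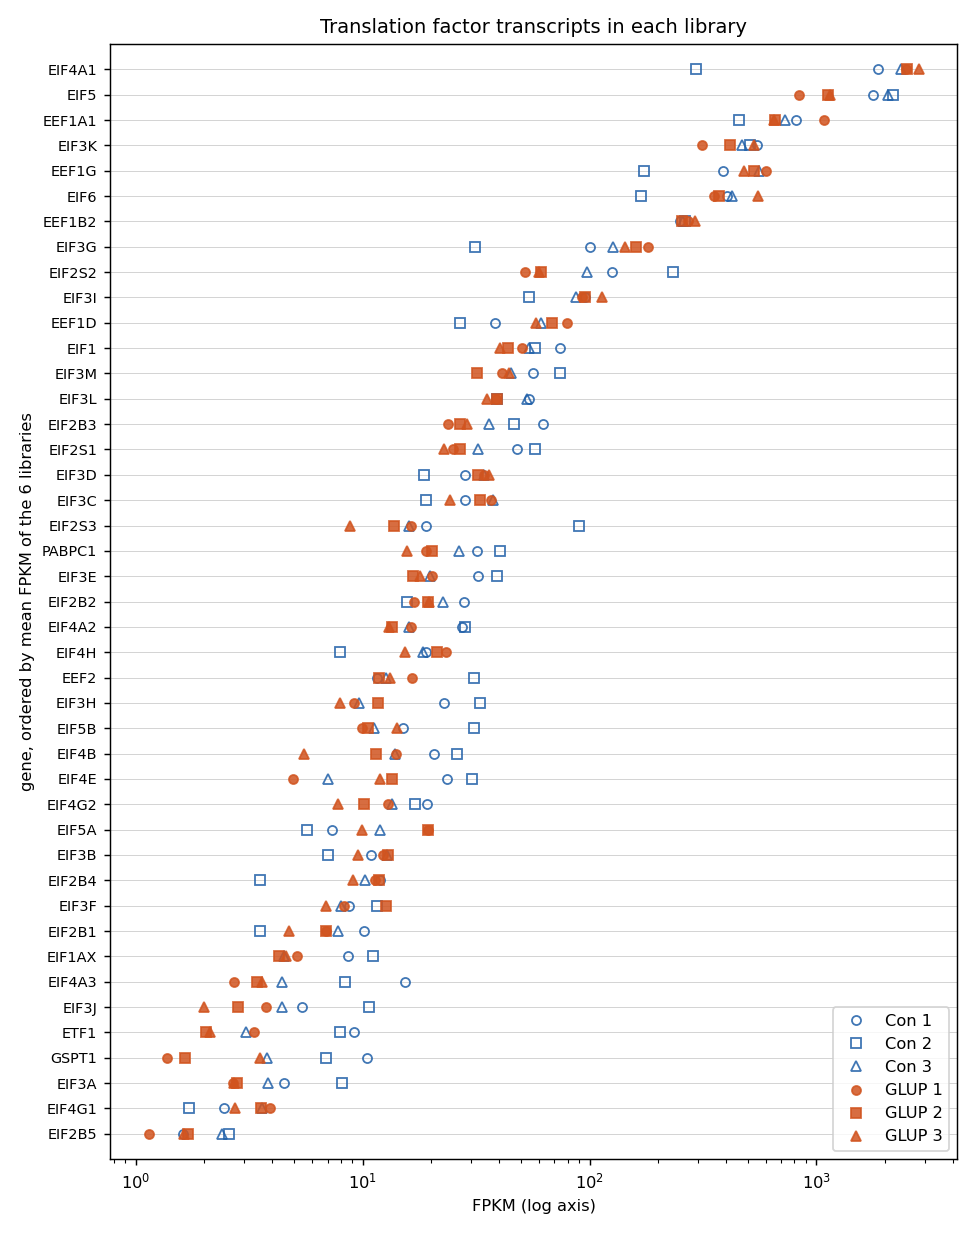
Level of each of the 43 translation factor transcripts in FPKM on a log axis (x) for each library, with genes (y) ordered by their mean; open blue symbols are Con replicates and filled orange symbols GLUP replicates. The open square of Con replicate 2 lies far left of the others for EIF4A1 (295 FPKM) and far right for EIF2S3 (89.8 FPKM).

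Subunits of one complex were not present at one level, although FPKM is scaled to length. The 13 eIF3 subunits differed 113-fold in mean FPKM. In single libraries EIF3K exceeded EIF3A 62.8-fold to 195-fold. EEF1A1, which delivers aminoacyl-tRNA, exceeded the translocase EEF2 14.7-fold to 70.1-fold, and the lowest of these ratios was that of Con replicate 2. The helicase paralogues differed more widely still, with EIF4A1 over EIF4A2 at 10.4 in Con replicate 2, 68.3 and 148 in the other Con libraries, and 152 to 217 in the GLUP libraries. Across the 43 genes the mean level ran against transcript length, with a Spearman correlation of -0.44 against -0.31 over 7279 tested genes. These are correlations across genes of the same libraries, and genes are not independent replicates.

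Many translation factor mRNAs are known to begin with a terminal oligopyrimidine (TOP) tract, a C at the cap followed by a run of C and T, through which mTOR signalling controls their translation via LARP1. To show which of the 43 carried such a start, the RefSeq start sites of the GRCh38.p14 build were searched on the transcript strand for a C as the first base followed by at least 4 bases that are each C or T. A start was used for 35 of the 43 genes, 49 starts in all. Starts of EIF3E, EIF3H, EEF1D and PABPC1 were left out by genomic location before counting, so whether they carry the run was not tested. EIF2S2, EIF3A, EIF3G and EIF3L had no entry. The run was found in 10 of the 35 genes (28.6%), against 5.14% of all 27305 genes in the table. Of the 6 classical TOP genes for which a start was used, 5 had the run and EEF1G did not, and EEF1B2 also has a listed start without it. Shown are 10 bases before and 20 bases from the start on, with the run in capitals. They cover the 5 classical genes with the run (EEF1A1, EEF1B2, EEF2, EIF3F, EIF4B), and EIF3K and EIF2S3 outside the classical list. The helicase pair EIF4A2 and EIF4A1 follows, of which EIF4A2 alone had the run.
EEF1A1 (chr6:73521013-73521042, minus strand): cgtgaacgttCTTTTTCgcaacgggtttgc
EEF1B2 (chr2:206159885-206159914, plus strand): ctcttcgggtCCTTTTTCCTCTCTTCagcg
EEF2 (chr19:3985444-3985473, minus strand): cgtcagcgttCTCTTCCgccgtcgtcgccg
EIF3F (chr11:7987327-7987356, plus strand): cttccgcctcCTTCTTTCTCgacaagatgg
EIF4B (chr12:53006446-53006475, plus strand): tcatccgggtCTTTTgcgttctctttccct
EIF3K (chr19:38619178-38619207, plus strand): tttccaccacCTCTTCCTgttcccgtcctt
EIF2S3 (chrX:24054946-24054975, plus strand): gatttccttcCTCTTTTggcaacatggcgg
EIF4A2 (chr3:186783567-186783596, plus strand): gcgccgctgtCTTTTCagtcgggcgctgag
EIF4A1 (chr17:7572815-7572844, plus strand): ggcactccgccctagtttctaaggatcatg
The longest run, 16 bases, was that of EEF1B2. A match describes these letters only and says nothing of use of the start in HGC-27 cells.

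The comparison of GLUP with Con was then made for every gene with a mean of at least 1 FPKM, which all 43 passed, by limma on log2(FPKM + 1). No gene of the list passed an adjusted p of 0.05, nor did any of the 7406 tested genes (0% called), and the adjusted p of the 43 ran from 0.194 to 0.926. At an unadjusted p under 0.05, 12 of the 43 were lower in GLUP (27.9%, against 17.2% of all tested genes) and 2 were higher (4.65%, against 4.46%). The 3 GLUP values lay wholly below the 3 Con values for 13 genes (30.2%, against 22.7%) and wholly above for 2 (4.65%, against 7.55%). With 3 libraries a group, the smallest two-sided p of an exact permutation test is 0.1. The log2 fold change was below 0 for 28 of the 43 (65.1%, against 65.5%), and its median was -0.35, compared with -0.23 for all tested genes. Scaled by the trimmed mean of log ratios instead, 5 of the 43 were lower (8.9% of all tested genes) and 3 higher (10.2%) at an unadjusted p under 0.05. In bulk RNA, fewer cells with a transcript and less of it per cell cannot be told apart. A difference of more than 2-fold was seen for 5 genes downwards (6.81% of all tested genes) and 2 upwards (2.94%).

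**Figure D2:**
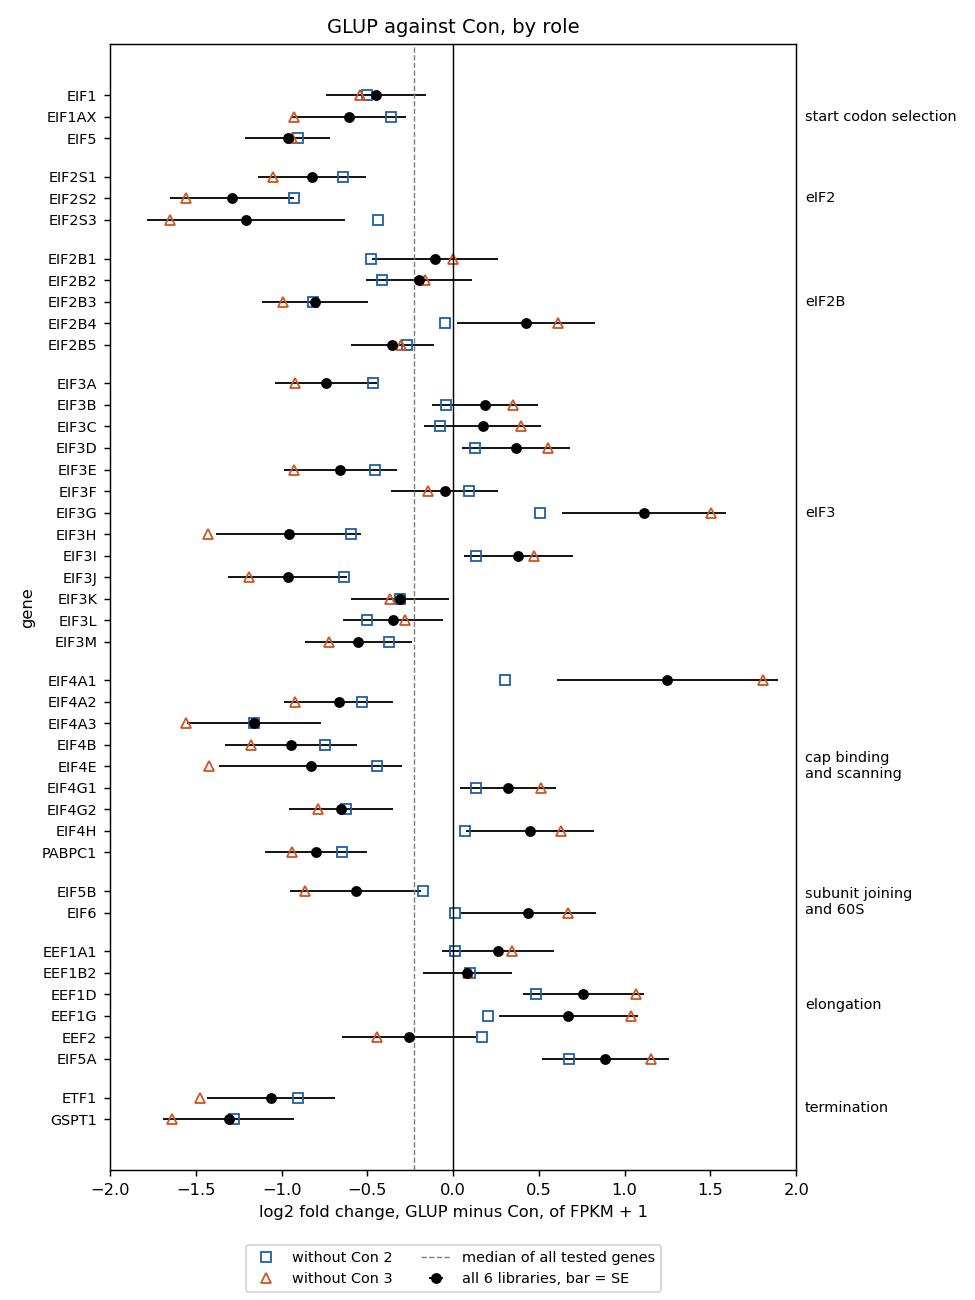
Log2 fold change of GLUP against Con on the FPKM + 1 scale (x) for the 43 genes grouped by role (y); black points use all 6 libraries with the SE as bar, blue squares leave out Con replicate 2 and orange triangles leave out Con replicate 3. All start codon, eIF2 and termination factors lie left of 0 in all 3 series, as do many genes of other roles. EIF4A1 moves from 1.25 to 0.30 when Con replicate 2 is left out.

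The choice of controls decided whether genes were called. Con replicate 3 was singled out because its values lay nearest to the GLUP mean, so leaving it out tends to widen differences by selection. It was the extreme library for 0 of the 43 genes and for 3.97% of all tested genes. Calls made without it, here and below, are therefore no independent evidence of a difference. Without Con replicate 3, 11 of the 43 passed an adjusted limma p of 0.05, in a fit that called 18.3% of 7479 tested genes. Of these, 10 were lower in GLUP (23.3%, against 16.2% of all tested genes), namely ETF1, EIF4A3, EIF3H, GSPT1, EIF2S2, EIF2S1, EIF1AX, EIF4A2, EIF2B3 and EIF3E, and EEF1D was higher (2.33%, against 2.17%). Without Con replicate 2 none of the 43 was called by limma, and 11 lower (14.8% of all tested genes) and 1 higher (4.07%) had an unadjusted p under 0.05. The median log2 fold change of the list became -0.37 when Con replicate 2 was left out and -0.44 when Con replicate 3 was.

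The eIF2 heterotrimer, which binds GTP and the initiator tRNA, had lower values in GLUP for each of its 3 subunits, with a median log2 fold change of -1.21. EIF2S2, the beta subunit, measured 125, 234 and 97.5 FPKM in Con replicates 1 to 3 and 51.9, 61.2 and 60.1 FPKM in GLUP. Every GLUP value was under every Con value, with the highest in Con replicate 2. The log2 fold change was -1.29 (SE 0.36, unadjusted p = 0.00527, adjusted p = 0.194 by limma), and it was -0.93 without Con replicate 2. EIF2S1, the alpha subunit whose phosphorylation shuts down initiation under stress, was at 47.9, 57.4 and 32.2 FPKM in Con and 24.9, 26.8 and 22.8 FPKM in GLUP. These groups did not overlap either, and the log2 fold change was -0.82 (SE 0.31, unadjusted p = 0.0257). EIF2S3, the GTP-binding gamma subunit, gave 19.0, 89.8 and 15.9 FPKM against 16.3, 13.7 and 8.81 FPKM. Its groups overlapped, and the single high value of Con replicate 2 carried much of the log2 fold change of -1.21 (SE 0.58), which was -0.44 without that library.

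The 5 subunits of eIF2B, the exchange factor that recharges eIF2 with GTP, had a median log2 fold change of -0.20. EIF2B3, a subunit of the catalytic part, stood apart from the rest. Con replicates had 62.0, 46.4 and 36.2 FPKM of EIF2B3 and GLUP replicates 23.9, 26.9 and 28.9 FPKM. No GLUP value reached the lowest Con value, for a log2 fold change of -0.81 (SE 0.31, unadjusted p = 0.0262, adjusted p = 0.199 by limma). The difference was nearly the same without Con replicate 2 (-0.82). EIF2B4 gave the smallest values in Con replicate 2, with 11.95, 3.51 and 10.2 FPKM in Con and 11.3, 11.8 and 9.05 FPKM in GLUP, and its log2 fold change of 0.43 (SE 0.40) turned to -0.05 without that library. Means of EIF2B1 were 7.15 ± 3.38 FPKM in Con and 6.16 ± 1.24 FPKM in GLUP, those of EIF2B2 22.0 ± 6.17 and 18.6 ± 1.54 FPKM, and those of the catalytic subunit EIF2B5 2.20 ± 0.512 and 1.49 ± 0.309 FPKM (SD, n = 3), with overlapping groups for all 3 genes.

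Start codon selection was represented by EIF1, EIF1AX and EIF5, and all 3 had log2 fold changes below 0. EIF5 had the smallest p of the whole list. It measured 1774, 2182 and 2067 FPKM in Con and 835, 1120 and 1149 FPKM in GLUP. The groups were widely separated, and the Con mean was 1.94 times the GLUP mean. The log2 fold change of EIF5 was -0.96 (SE 0.25, unadjusted p = 0.0031, adjusted p = 0.194 by limma), and it remained at -0.90 and -0.94 without Con replicate 2 or 3. EIF1, which keeps the scanning ribosome open, gave 74.4, 57.4 and 54.2 FPKM against 50.3, 43.9 and 40.2 FPKM. The groups of EIF1 did not overlap, and the log2 fold change was -0.45 (SE 0.29, unadjusted p = 0.152). EIF1AX, with 8.59, 11.1 and 4.51 FPKM in Con and 5.15, 4.28 and 4.61 FPKM in GLUP, overlapped through Con replicate 3, for a log2 fold change of -0.61 (SE 0.33, unadjusted p = 0.0989) that was -0.36 without Con replicate 2, -0.93 without Con replicate 3, and 0.029 once a trend in GC content and length was removed.

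**Figure D3:**
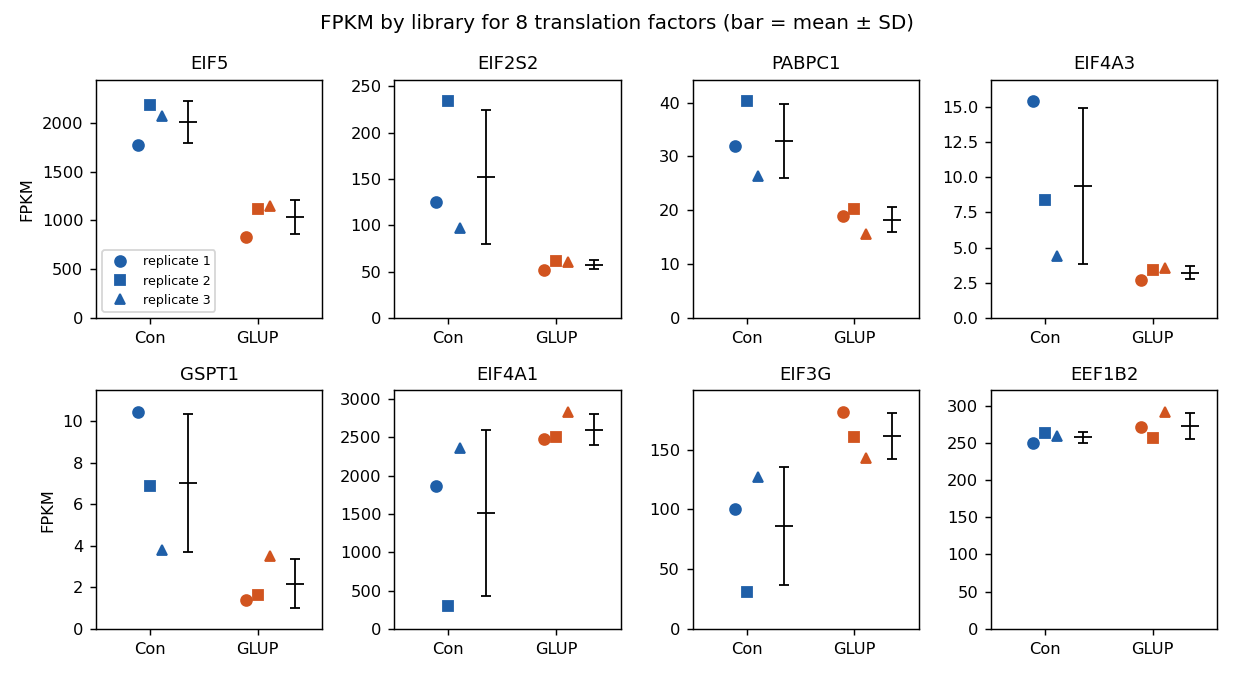
FPKM (y, from 0) of 8 translation factors in each Con and GLUP library (x), with replicates 1, 2 and 3 as circle, square and triangle and the mean ± SD beside them. EIF5, EIF2S2, PABPC1, EIF4A3 and GSPT1 have all GLUP values under all Con values, EIF4A1 and EIF3G the reverse with Con replicate 2 lowest at 295 and 31.1 FPKM, and EEF1B2 lies between 250 and 291 FPKM throughout.

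The 13 subunits of eIF3, the large scaffold on the small ribosomal subunit, did not share a direction, with 8 below 0, 5 above and a median log2 fold change of -0.31. The 8 subunits that form the octameric body of the complex (EIF3A, EIF3C, EIF3E, EIF3F, EIF3H, EIF3K, EIF3L and EIF3M) were below 0 in 7 cases, with a median of -0.45, whereas EIF3B, EIF3G and EIF3I, which make up a peripheral module, were above 0 in 3 of 3 cases, with a median of 0.38, or 0.13 without Con replicate 2. This grouping was made after the values were seen and received no test. Signs that turned with the setting were those of EIF3F (0.21 by trimmed-mean scaling), EIF3M (0.0030 with the trend in GC content and length removed), and EIF3B and EIF3C (-0.040 and -0.079 without Con replicate 2).

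EIF3G, an RNA-binding subunit, gave 100.5, 31.1 and 127 FPKM in Con and 181, 161 and 143 FPKM in GLUP. All GLUP values exceeded all Con values, by a log2 fold change of 1.11 (SE 0.48, unadjusted p = 0.0425, adjusted p = 0.218 by limma). Leaving out Con replicate 2, the lowest library, brought it to 0.51. EIF3J, a loosely bound subunit at the decoding centre, was at 5.39, 10.7 and 4.41 FPKM in Con against 3.75, 2.81 and 2.00 FPKM in GLUP. These groups were separate, for a log2 fold change of -0.96 (SE 0.35, unadjusted p = 0.0195). EIF3A, the largest subunit, had 4.48, 8.08 and 3.83 FPKM in Con and a narrow 2.67, 2.78 and 2.71 FPKM in GLUP, again without overlap, for a log2 fold change of -0.74 (SE 0.30, unadjusted p = 0.0329). Con replicate 2 was the high library of both genes, and without it the log2 fold change was -0.63 for EIF3J and -0.47 (unadjusted p = 0.073) for EIF3A.

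EIF3H, a subunit with a deubiquitinase-like fold, had 22.7, 32.7 and 9.60 FPKM in Con and 9.14, 11.7 and 7.94 FPKM in GLUP. Con replicate 3 lay among the GLUP libraries, and the log2 fold change was -0.96 (SE 0.42, unadjusted p = 0.0462), or -1.43 without Con replicate 3 and -0.60 without Con replicate 2. EIF3L and EIF3M had separate groups with small differences. EIF3L gave 54.2, 39.0 and 53.2 FPKM against 38.8, 38.9 and 35.4 FPKM (log2 fold change -0.35, SE 0.29), its lowest Con value barely above the highest GLUP value. EIF3M gave 56.5, 74.0 and 45.2 FPKM against 41.3, 32.05 and 44.2 FPKM (log2 fold change -0.55, SE 0.31). The other subunits overlapped between the groups, from EIF3E with 30.4 ± 9.85 FPKM in Con and 18.3 ± 1.70 FPKM in GLUP to EIF3D with 27.1 ± 7.88 and 34.2 ± 1.99 FPKM and EIF3I with 79.0 ± 22.1 and 100.6 ± 11.7 FPKM (SD, n = 3). EIF3F was nearest to no difference, with 9.44 ± 1.86 and 9.26 ± 2.99 FPKM (SD, n = 3). EIF3K had 509 ± 38.9 and 419 ± 109 FPKM, and EIF3B 10.3 ± 2.93 and 11.6 ± 1.79 FPKM (SD, n = 3). EIF3C (28.3 ± 9.31 and 31.3 ± 6.42 FPKM) has a near-identical copy, EIF3CL, and the share of its reads is uncertain.

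The group of cap-binding and scanning factors, in which EIF4A3 of the exon junction complex was also counted, had 6 of 9 members below 0. Its median log2 fold change was -0.67, and its values furthest from 0 in each direction were those of helicases of the same family. EIF4A1 measured 1870, 295 and 2367 FPKM in Con and 2479, 2500 and 2830 FPKM in GLUP. Every GLUP library was above every Con library, yet Con replicate 3 was close to GLUP and Con replicate 2 far below all others. The log2 fold change of EIF4A1 was 1.25 (SE 0.64, unadjusted p = 0.0813, adjusted p = 0.266 by limma) with all libraries, 0.30 without Con replicate 2 and 1.81 without Con replicate 3. EIF4A1 shares 1468 exonic bases with the readthrough gene SENP3-EIF4A1, listed at 0 in all Con libraries and GLUP replicate 3 and at 7.77 and 35.2 FPKM in GLUP replicates 1 and 2, so that the split of reads between them is uncertain. EIF4A3, the helicase of the exon junction complex, had 15.4, 8.40 and 4.42 FPKM in Con and 2.69, 3.40 and 3.59 FPKM in GLUP. The groups did not overlap, and the log2 fold change was -1.16 (SE 0.39, unadjusted p = 0.0139, adjusted p = 0.197 by limma). It was the same to 2 decimals without Con replicate 2, -0.76 (unadjusted p = 0.0547) without Con replicate 1, its highest library, and -1.56 without Con replicate 3. EIF4A2, the paralogue of EIF4A1, gave 27.4, 28.2 and 16.0 FPKM against 16.3, 13.5 and 13.0 FPKM, overlapping through Con replicate 3, for a log2 fold change of -0.67 (SE 0.32).

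PABPC1, the poly(A)-binding protein that joins the tail to the cap complex, was at 31.9, 40.2 and 26.5 FPKM in Con and 19.0, 20.2 and 15.7 FPKM in GLUP. The groups were separate, with a log2 fold change of -0.80 (SE 0.30, unadjusted p = 0.0232). EIF4G2, a scaffold related to EIF4G1 that lacks the cap-binding partner site, had 19.3, 17.0 and 13.4 FPKM against 12.9, 10.1 and 7.80 FPKM, also separate (log2 fold change -0.65, SE 0.30, unadjusted p = 0.0577). EIF4B, a cofactor of the helicase, had 20.6, 26.1 and 13.9 FPKM against 14.1, 11.4 and 5.53 FPKM. Its highest GLUP value passed the lowest Con value, and the log2 fold change was -0.94 (SE 0.39, unadjusted p = 0.0348), or -0.59 without GLUP replicate 3, its lowest library. EIF4E, the cap-binding protein itself, overlapped widely, with 20.3 ± 11.97 FPKM in Con and 10.1 ± 4.56 FPKM in GLUP, and EIF4H, another helicase cofactor, had 15.1 ± 6.21 and 19.9 ± 4.08 FPKM (SD, n = 3). EIF4G1 had 2.58 ± 0.945 and 3.39 ± 0.590 FPKM (SD, n = 3).

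The late initiation factors went apart in sign. EIF5B, the GTPase of subunit joining, had 15.0, 30.8 and 11.2 FPKM in Con and 9.97, 10.5 and 14.2 FPKM in GLUP. Con replicate 2 was its high library and the groups overlapped, for a log2 fold change of -0.57 (SE 0.38), or -0.17 without that library. EIF6 had 403, 169 and 423 FPKM against 352, 372 and 551 FPKM. Here Con replicate 2 was the low library, and the log2 fold change was 0.44 (SE 0.39), or 0.01 without it.

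The elongation factors were the one role with most members above 0, 5 of 6, with a median log2 fold change of 0.47. The 4 subunits of eEF1, EEF1A1 and its exchange factors EEF1B2, EEF1D and EEF1G, were above 0 in 4 of 4 cases, but their median of 0.47 was 0.15 without Con replicate 2. EEF1D gave 38.2, 26.9 and 61.3 FPKM in Con and 79.8, 68.2 and 58.1 FPKM in GLUP. Con replicate 3 lay within the GLUP range, and the log2 fold change was 0.76 (SE 0.36, unadjusted p = 0.0585), or 1.06 with an adjusted limma p of 0.0482 without Con replicate 3. Without Con replicate 2 it was 0.48 (unadjusted p = 0.0957), and with the trend in GC content and length removed 0.36. EEF1B2 hardly differed, with 250, 264 and 259 FPKM against 272, 256 and 291 FPKM, and its log2 fold change of 0.08 (SE 0.26) gives an error wider than the difference. EEF1G was at 373 ± 193 FPKM in Con and 537 ± 62.5 FPKM in GLUP, and EEF1A1, whose many processed pseudogenes make its reads hard to place, at 663 ± 185 and 794 ± 245 FPKM (SD, n = 3). EIF5A, which relieves ribosomes stalled at proline runs, had 7.29, 5.66 and 11.97 FPKM against 19.5, 19.3 and 9.88 FPKM. GLUP replicate 3 fell inside the Con range, and the log2 fold change of EIF5A was 0.89 (SE 0.37, unadjusted p = 0.0382, adjusted p = 0.211 by limma). EEF2 was the 1 elongation factor below 0, at -0.26 (SE 0.39), from 11.5, 30.9 and 12.6 FPKM against 16.5, 11.8 and 13.2 FPKM. Con replicate 2 was its single high library, and the value was 0.17 without it and 0.010 by trimmed-mean scaling.

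Both release factors had lower values in GLUP, with a median log2 fold change of -1.19. GSPT1, the GTPase eRF3a, had the lowest log2 fold change of all 43 genes. It measured 10.4, 6.88 and 3.80 FPKM in Con and 1.37, 1.65 and 3.51 FPKM in GLUP. The groups touched but did not overlap, between Con replicate 3 and GLUP replicate 3, and the log2 fold change was -1.31 (SE 0.38, unadjusted p = 0.00634, adjusted p = 0.194 by limma). ETF1, the stop codon reader eRF1, had 9.15, 7.98 and 3.07 FPKM against 3.31, 2.03 and 2.11 FPKM. Con replicate 3 was again among the GLUP values, and the log2 fold change was -1.06 (SE 0.37, unadjusted p = 0.0172, adjusted p = 0.198 by limma). Without Con replicate 3 the adjusted limma p was 0.0316 for GSPT1 and 0.0289 for ETF1, and without Con replicate 2 the log2 fold changes were -1.28 and -0.90.

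**Figure D4:**
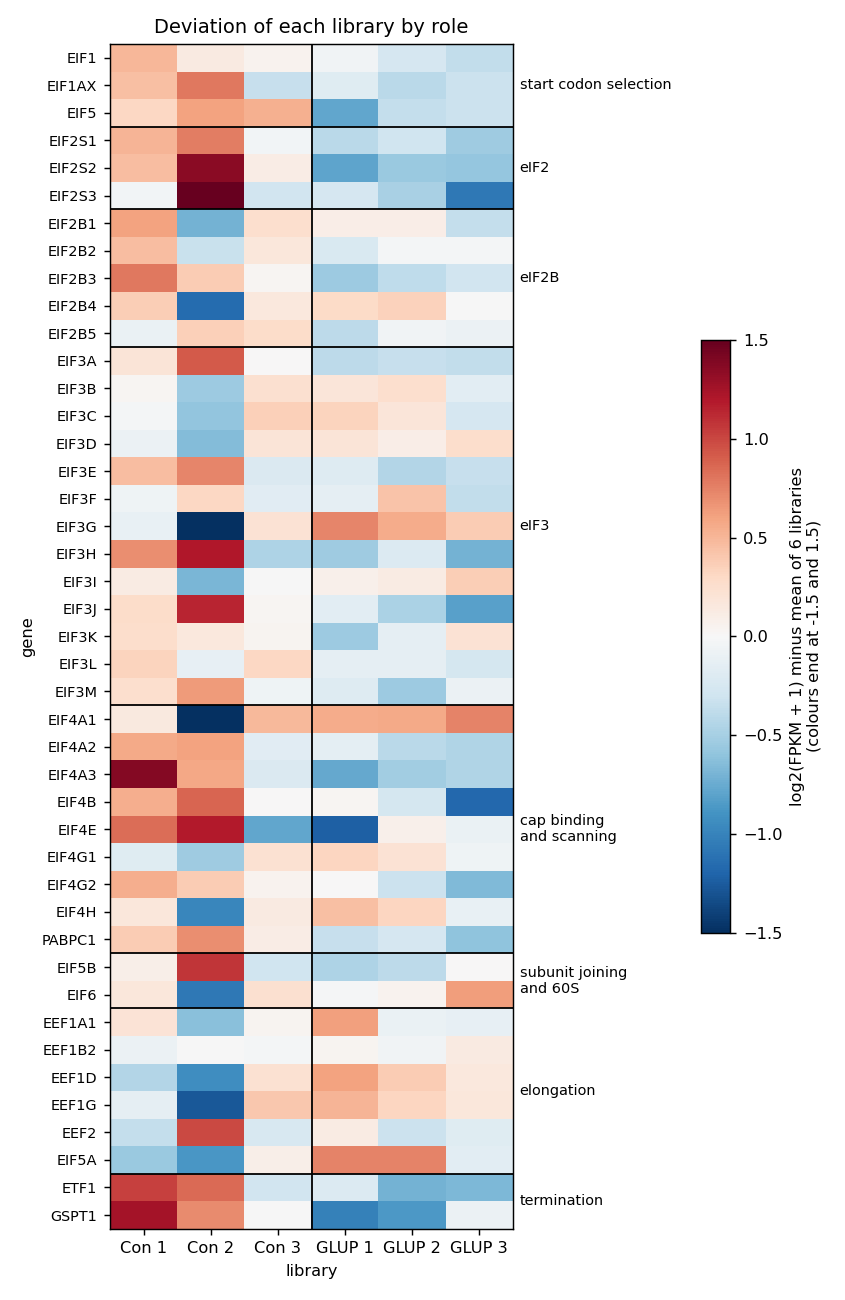
Heat map of log2(FPKM + 1) minus the mean of the 6 libraries (colour, ending at -1.5 and 1.5) for the 43 genes (rows, by role) in each library (columns). Con replicate 2 holds the deepest colours in both directions and is the extreme library for 28 genes, while Con replicate 3 is the control nearest to the GLUP mean for 32.

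The base composition of the transcripts moved with these differences. Across the 43 genes the log2 fold change had a Spearman correlation of 0.69 with the GC content of the canonical transcript, compared with 0.56 over 7279 tested genes; leaving out Con replicate 2 gave 0.58, and leaving out Con replicate 3 gave 0.70. The points share all 6 libraries, and GC content in turn ran against length (-0.50). Of the 20 genes under 45% GC, 19 were below 0 with a median of -0.78, against 88.6% of all tested genes in that range and a median of -0.49. Of the 15 genes with at least 50% GC, 12 were above 0 with a median of 0.38, where the median of all tested genes was 0.15. EEF1A1 was the exception at the low end, with 42.5% GC, and EIF2B5, EIF3K and EEF2 were the exceptions at the high end. The eIF2 subunits lay between 38.3% and 44.4% GC, and EEF1D, EEF1G and EIF5A between 54.5% and 64.6%.

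The same dependence was visible in single libraries. The deviation of the 43 genes from their mean over the 6 libraries correlated with GC content at -0.57 in Con replicate 1, -0.70 in Con replicate 2 and 0.62 in Con replicate 3, against 0.54 to 0.62 in the GLUP libraries. Con replicate 3 thus had the sign of the GLUP libraries. When a trend in GC content and length was removed from each library, the median log2 fold change of the 43 became -0.03 and that of all tested genes 0.01. At an unadjusted p under 0.05, 5 genes were then lower in GLUP (11.6%, against 9.23% of all tested genes), EIF2S2 (-0.89), EIF2B3 (-0.58), EIF4A3 (-0.99), ETF1 (-0.60) and GSPT1 (-0.84), and EIF3G was higher (0.80; 2.33%, against 8.79%). EIF4A1 had a log2 fold change of 1.37 (SE 0.65, unadjusted p = 0.0664 by limma), with its low library Con replicate 2 included. EIF5 had -0.48 (unadjusted p = 0.103). The correlation with GC content that remained was 0.36. The cause of the link with base composition was not tested.

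**Figure D5:**
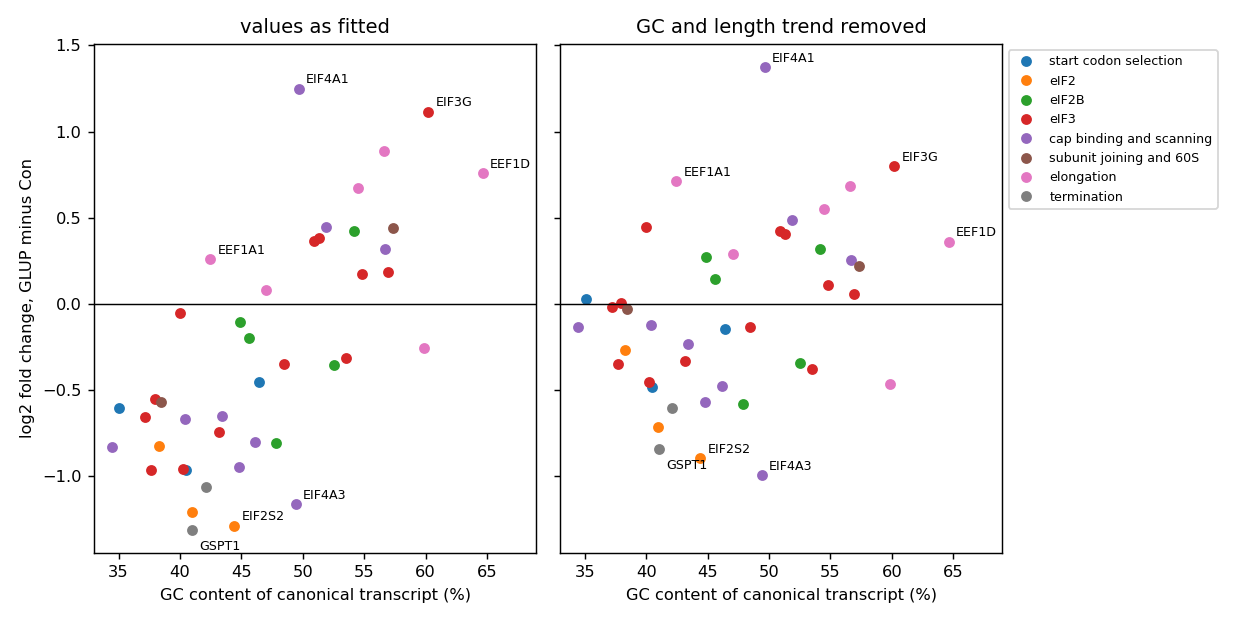
Log2 fold change of GLUP against Con (y) against GC content of the canonical transcript in percent (x) for the 43 genes, coloured by role, as fitted (left) and with the trend in GC content and length removed from each library (right). The Spearman correlation is 0.69 on the left and 0.36 on the right, and EIF4A1, EIF3G, EIF4A3, EIF2S2 and GSPT1 stay far from 0 on both sides. All libraries are included, among them Con replicate 2, which holds the lowest values of EIF4A1 and EIF3G.

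The TOP genes lay on both sides of 0. The 11 genes of the classical list (EEF1A1, EEF1B2, EEF1D, EEF1G, EEF2, EIF3A, EIF3E, EIF3F, EIF3H, EIF4B and PABPC1) had a median log2 fold change of -0.26, with 7 below 0, and the other 32 a median of -0.40, with 21 below 0. Without Con replicate 2 these medians were 0.010 and -0.39, so that the sign of the first turned; without Con replicate 3 they were -0.44 and -0.45. By trimmed-mean scaling the median of the 11 was also 0.010. By the start sequences searched above, the median was -0.28 for the 10 genes with the run (7 below 0) and -0.35 for the 25 without (15 below 0). EIF3A, EIF3E, EIF3H, EEF1D and PABPC1 of the classical list, for which no start was used, were in neither set. Both sets were wide, from -1.21 (EIF2S3) to 0.36 (EIF3D) with the run and from -1.31 (GSPT1) to 1.25 (EIF4A1) without. Translation of these mRNAs was not measured.

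Among 41 relatives and regulators of the 43 genes, 27 reached a mean of 1 FPKM. By limma none passed an adjusted p of 0.05. At an unadjusted limma p under 0.05, 5 were lower in GLUP (18.5%, against 17.2% of all tested genes) and 0 higher (4.46%). The log2 fold change was below 0 for 24 of the 27 (88.9%, against 65.5%). Their median was -0.31, against -0.23 for all tested genes. It was -0.069 by trimmed-mean scaling (-0.019 for all tested genes). With the trend in GC content and length removed it was -0.053 (0.0075 for all tested genes). EEF1E1, which despite its symbol is a scaffold of the tRNA synthetase complex, gave 309, 204 and 132 FPKM in Con and 103, 99.7 and 96.1 FPKM in GLUP (log2 fold change -1.02, unadjusted p = 0.0151). EIF2A, an alternative carrier of initiator tRNA, followed with -0.92 (unadjusted p = 0.0166) and PAIP1, a partner of PABPC1, with -0.99 (unadjusted p = 0.027). In all 3 genes the groups were separate. Without Con replicate 2, the highest library of EIF2A and PAIP1, the values were -0.61 for EIF2A, -0.51 for PAIP1 and -1.01 for EEF1E1. The 3 values above 0 were small, 0.30 for EIF2D, 0.13 for MKNK2, a kinase of EIF4E, and 0.12 for PABPC4. MTOR, EEF2K and the eIF2 kinase EIF2AK3 stayed under the minimum, and EEF1A2, the paralogue of EEF1A1 known from neurons and muscle, did not exceed 0.543 FPKM.

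Some of the 43 genes overlap others in their exons, and strand-specific counting is not stated, so their values are uncertain to that extent. On the opposite strand EIF5A shares 241 bases with GPS2, which measured 22.0 to 47.2 FPKM, EIF3H 110 bases with UTP23 (18.0 to 70.05 FPKM), EIF2B1 538 bases with DDX55 (7.27 to 12.7 FPKM) and EIF3L 460 bases with ANKRD54 (5.65 to 10.1 FPKM). EIF5A itself lay below GPS2 in every library.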

How the data were processed

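Total RNA of 6 HGC-27 samples, 3 Con and 3 GLUP by their titles, had been sequenced. The authors deposited a table of FPKM values per gene; the labels name HISAT2, Cufflinks and RSEM and the build GRCh38.p10 without roles, while 53057 of 62492 identifiers carry the suffix of an annotation lifted to GRCh37. The depth is unknown and FPKM holds no counts, so count tests were not used. Values were tested as log2(FPKM + 1) with limma 3.58.1 in R 4.3.3 (lmFit, eBayes with trend), two-sided, on 7406 genes (mean FPKM of 1 or more), with Benjamini-Hochberg adjustment over all of them. A fold change on this scale understates the change of low genes. Length and GC content came from GENCODE release 44 lifted to GRCh37. The fit was tested on simulated data. All 43 genes are reported by role, in full where groups did not overlap or the unadjusted p was under 0.05, with the 3 relatives of smallest p in each direction. The genes, lists and tests were chosen with earlier results of these data known. Alternatives were a pseudocount of 0.1 or 0.01, no minimum, a minimum of 5 FPKM, trimmed-mean (30% by ratio, 5% by level), upper-quartile, non-mitochondrial and median scaling, subtraction from each library of a loess curve on length and GC content (span 0.5), eBayes without trend or robust, the replicate block, and leaving out each library.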

Additional observations from a re-analysis of the deposited data

How the results depend on the processing

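FPKM carries no read counts, so depth sets an unknown limit, and 3 libraries a group cannot give an exact permutation p under 0.1. Scaling shifted all genes: by the trimmed mean the median log2 fold change was -0.02 over all tested genes and -0.17 over the 43. The pseudocounts changed no direction of the 43 genes or of EEF1E1, EIF2A, PAIP1, EIF2D, MKNK2 and PABPC4. All genes called by limma at an adjusted p under 0.05 numbered 0 as reported, 1 with a minimum of 5 FPKM, 2 after removal of the trend in GC content and length, 1 with eBayes without trend, and 1 under the replicate block with or without that trend; leaving out 1 library gave 0 to 1372, the last without Con replicate 3. Of the 43 genes, 0 were called, or 0 to 11 leaving out 1 library. The 12 of the 43 lower at an unadjusted p under 0.05 became 7 of 37 tested with a minimum of 5 FPKM (18.8% of all tested genes), which left 4 of the 12 untested. They became 5 with the trimmed mean (8.9%), the upper quartile (8.84%), the median (7.71%) or the trend removed (9.23%), 4 with the block and the trend removed (8.52%), and 4 (8.39% without GLUP replicate 2, 9.77% without GLUP replicate 3) to 20 (31.6%, without Con replicate 3) leaving out 1 library. The 2 higher became 0 with no filter, 1 without mitochondrial genes in the total, 1 with the trend removed, and 0 to 5 leaving out 1 library. The 5 relatives lower became 2 with a minimum of 5 FPKM (18.8% of all tested genes), the trimmed mean (8.9%) or the upper quartile (8.84%). They became 1 with the median (7.71%) or the trend removed (9.23%), and 2 with the block and the trend removed (8.52%). Leaving out 1 library gave 2 to 8, where 8.39% to 31.6% of all tested genes were lower. The median of the 43 was -0.030 with the trend removed, blocked or not, and -0.49 to -0.37 leaving out 1 library. The cause of these moves was not tested.

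Directions turned for 9 of the 43 genes and for EIF2D, MKNK2 and PABPC4. With the trimmed mean, upper quartile and median scaling, the log2 fold change was 0.14, 0.15 and 0.16 for EIF2B1, 0.073, 0.078 and 0.065 for EIF2B2, 0.21, 0.21 and 0.21 for EIF3F, and 0.010, 0.016 and 0.0065 for EEF2. After removal of the composition and length trend, blocked or not by replicate, it was 0.029 for EIF1AX, 0.27 for EIF2B1, 0.15 for EIF2B2, 0.44 for EIF3F, 0.0030 for EIF3M and -0.094 for MKNK2. Leaving out 1 library gave -0.48 to 0.17 for EIF2B1, -0.047 to 0.71 for EIF2B4, -0.040 to 0.35 for EIF3B, -0.079 to 0.40 for EIF3C, -0.27 to 0.12 for EIF3F, -0.50 to 0.17 for EEF2, -0.0020 to 0.46 for EIF2D and -0.024 to 0.20 for PABPC4. Of the 43, 34 genes kept their direction in every setting run.

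Same-numbered deviations from the group means correlated at 0.13, -0.01 and -0.17. Differently numbered libraries were not compared, and neither labels nor methods state a pairing, so whether replicate numbers pair the samples is unknown. With the replicate number as a block, 12 of the 43 were lower (15.6% of all tested genes) and 2 higher (4.79%) at an unadjusted p under 0.05. Of these, 11 and 1 were among those lower and higher without the block. EIF2S3 (unadjusted p = 0.0278) and EIF4A1 (unadjusted p = 0.0267) took the place of EIF2B3 (unadjusted p = 0.0605) and EIF5A (unadjusted p = 0.0618) in these limma fits. At the same threshold 6 relatives were lower with the block, against 15.6% of all tested genes.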

Other observations

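EIF4EBP1, the repressor that binds the cap-binding protein EIF4E, was the most abundant of the 27 relatives tested and was picked out here after its values were seen. It measured 1223, 158 and 1293 FPKM in Con replicates 1 to 3 and 472, 434 and 573 FPKM in GLUP. Con replicates 1 and 3 lay above all GLUP libraries and Con replicate 2 below all of them. The log2 fold change of -0.36 (limma, adjusted p = 0.745) was -1.36 (limma, adjusted p = 0.0754) without Con replicate 2 and turned to 0.15 without Con replicate 3. MKNK1, a kinase of EIF4E, had the lowest log2 fold change of the relatives, -1.23 (limma, adjusted p = 0.211), against -1.20 once the trend in GC content and length was removed. It measured 10.8, 33.4 and 6.28 FPKM in Con and 3.59, 5.23 and 7.02 FPKM in GLUP. Con replicate 2 was its high library, and the log2 fold change was -0.60 without it.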
